A study of Mus musculus with 12 samples.

Results

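The unfolded protein response and the integrated stress response were followed here through 34 genes, listed by mouse symbol and matched through their Ensembl identifiers to a table of 53379 genes. All 34 were found, and all 34 passed the filter on low counts that left 19252 genes for testing. By role they comprised 14 chaperones and folding enzymes of the endoplasmic reticulum (ER), 4 sensors and transcription factors, 6 genes of ER-associated degradation and protein translocation, and 10 genes of the branch driven by ATF4. They were measured in 12 RNA-seq libraries of wild-type C57BL/6J mice, described as cortex from the injured region and collected 6 months after injury. A purified control diet given without interruption was crossed with a fish oil-supplemented high-fat diet given in cycles, and rlmTBI, a repeated closed head injury of less than mild severity, was crossed with a sham procedure. The 4 groups of 3 libraries are called fish oil injured, fish oil sham, purified injured and purified sham, and their libraries carry the labels' numbers 2, 3 and 4. The diets differ in fat content and in schedule as well as in fish oil, so these cannot be told apart, and the labels do not say whether libraries came from separate animals, so p-values measure the spread between libraries. In each group the library names of 3 and 4 share their first number, and that of library 2 has another. The labels do not tie this number to animals, so the 3 libraries of a group may not be equally independent.

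Proteins that enter the ER are folded by chaperones such as BiP, encoded by Hspa5. When unfolded protein accumulates there, the membrane sensors IRE1 (Ern1), PERK (Eif2ak3) and ATF6 are released: IRE1 splices Xbp1 mRNA, ATF6 is cut to give a transcription factor, and both raise transcription of chaperones and degradation genes. PERK is also a kinase of the translation factor eIF2, and together with kinases that sense amino acid shortage, haem or double-stranded RNA it favours translation of ATF4, which switches on genes of amino acid supply and, when stress lasts, Ddit3 (CHOP). Neurons and the secretory cells of the choroid plexus are both rich in ER.

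The libraries held 46362158 to 70754854 counts, of which the 34 genes took 0.271% to 0.333%. Cortical neuron markers were abundant in all 12 libraries, with a summed level of 6755 to 10700 CPM (counts scaled to a common library size) over 16 genes. Some libraries stood apart. The summed level of 15 choroid plexus genes was 682, 4350 and 4281 CPM in fish oil injured libraries 2, 3 and 4, 1027 CPM in purified sham library 3, and 245 to 418 CPM in the other 8. Genes of striatal neurons summed to 2176 CPM in fish oil sham library 2, to 882 CPM in purified sham library 4 and to 167 to 501 CPM in the others. Genes of olfactory bulb neurons summed to 1124 CPM in purified injured library 3, against at most 161 CPM elsewhere. Fits without the 2 libraries rich in other regions' genes left out fish oil sham library 2 and purified injured library 3, and kept purified sham library 4. No gene of the 19252 passed an adjusted p of 0.05 in any of 7 comparisons with edgeR's quasi-likelihood test, so that no member did either.

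Per kilobase of exon, the 5 most abundant members were chaperones. The other chaperones ranked from 11 (Pdia6) to 27 (Sdf2l1) among the 34, below Asns, Atf4, Sel1l, Psat1 and Xbp1. Averaged over 12 libraries, Calr (calreticulin) and Canx (calnexin), the lectin chaperones that hold glycoproteins during folding, each stood at 105 RPKM, the CPM divided by the exon length in kilobases. Hsp90b1 (GRP94, the ER form of HSP90) followed at 98.8 RPKM, Pdia3, a disulfide isomerase that works with the lectin chaperones, at 58.7 RPKM, and Hspa5 at 58.6 RPKM. The most abundant ATF4-branch genes were Asns (asparagine synthetase) at 43.4 RPKM and Atf4 itself at 42.6 RPKM. At the other end, Ern1 stood at 1.92 RPKM, Derl3 (a derlin of the degradation channel) at 0.246 RPKM and Trib3 (a pseudokinase induced by ATF4) at 0.143 RPKM. The spread within groups was smallest for Manf, with a coefficient of variation of 5.54%, and largest for Trib3, at 47.5%.

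**Figure D1:**
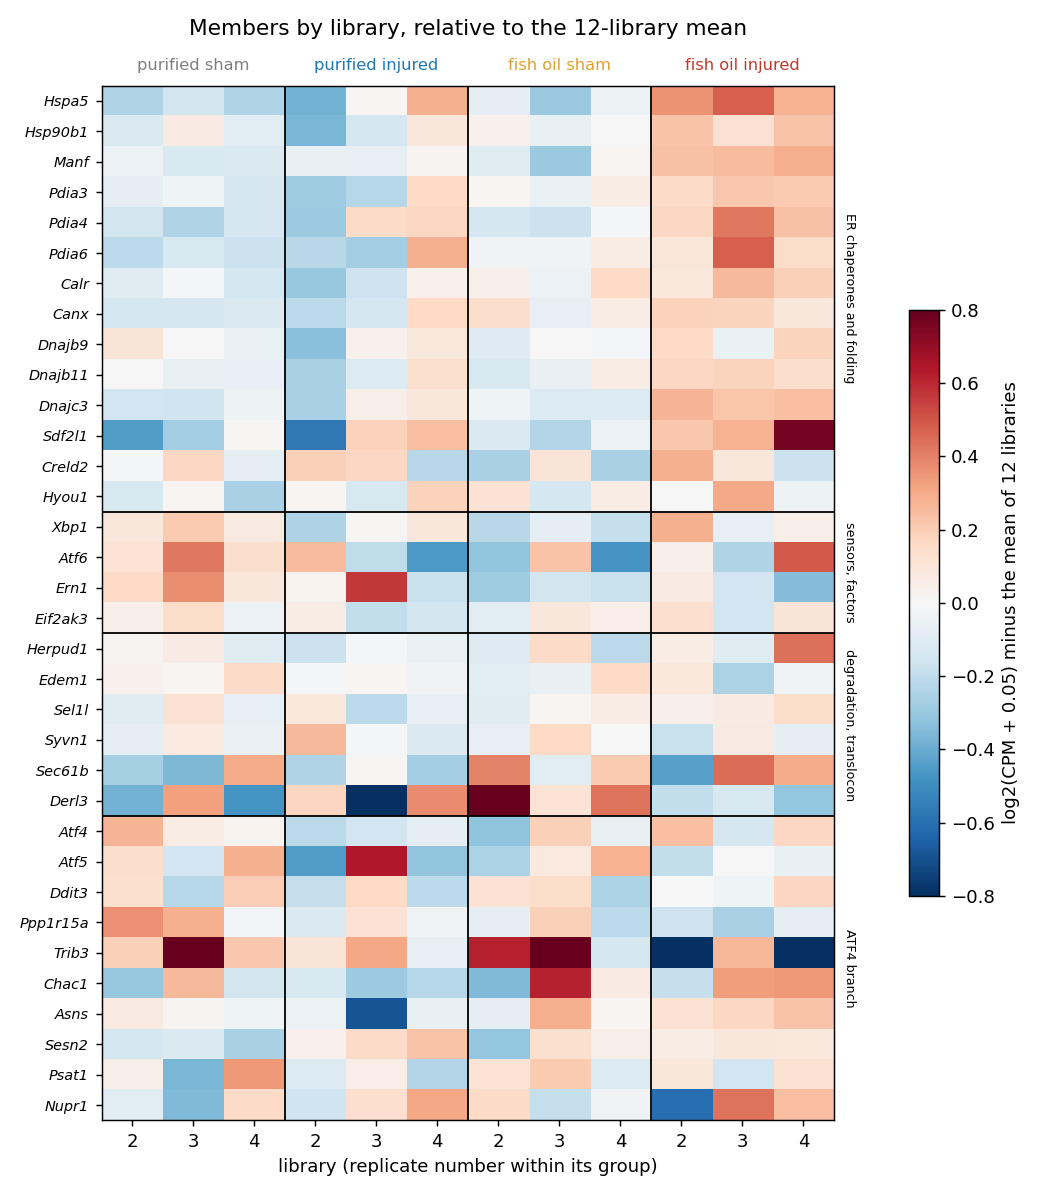
Level of each of the 34 genes (rows, by role) in each of the 12 libraries (columns, by group), as log2(CPM + 0.05) minus the gene's mean over the 12 libraries; colours are limited to ±0.8. The upper block shows 14 of 14 chaperones with their highest library among the 3 fish oil injured ones, and 10 of 14 with their lowest in purified injured library 2.

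The sequences before the start sites are shown because 7 of the 14 chaperone genes carry the same element there. RefSeq promoters (GRCm38.p6) were on hand for 31 of the 34 genes, and the 250 bases before each start were searched on both strands. The chaperones Manf and Hyou1 and the sensor Atf6 had no promoter on hand and were not searched. The ER stress response element (ERSE), bound by ATF6 and XBP1 together with NF-Y, was searched as CCAAT and CCACG with any 9 bases between them. It was found for 9 of the 31 genes, against 37 of 32841 promoters overall (0.113%). The matches follow, read in the direction of the motif with its fixed letters in capitals; Hsp90b1 held a pair of them.
Hspa5: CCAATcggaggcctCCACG
Hsp90b1, far match: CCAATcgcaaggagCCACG
Hsp90b1, near match: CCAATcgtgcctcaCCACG
Calr: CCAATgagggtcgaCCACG
Canx: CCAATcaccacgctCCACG
Pdia6: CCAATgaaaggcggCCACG
Dnajc3: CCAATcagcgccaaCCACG
Creld2: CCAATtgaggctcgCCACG
Syvn1: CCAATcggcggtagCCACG
Derl3: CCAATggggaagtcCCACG
The flanks are those searched for, and the spacers between them differ from match to match. Of the 9 genes, 7 are chaperones, and the other two, Syvn1 (HRD1, the ubiquitin ligase of ER-associated degradation) and Derl3, belong to the degradation machinery. The match of Hspa5 lies at chr2:34772025-34772043 on the plus strand, 65 to 47 bases before the RefSeq start, and inside the gene's span in GENCODE M21, which begins further upstream.

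Other motifs were rarer among the members. The shorter element ERSE-II was searched as ATTGG and CCACG with any 1 base between them. Of the 31 genes searched it was found for Herpud1 alone, against 10 of 32841 promoters (0.0304%). The element TGACGTGG bound by XBP1 was found for none of them, against 185 promoters (0.563%). The amino acid response element bound by ATF4 with a C/EBP partner, searched as TGATGNAA, was found for Herpud1, Chac1, Asns and Nupr1, against 1133 promoters (3.45%). The matches of Asns and Nupr1 lie inside the gene's span in GENCODE M21. The RefSeq start of Nupr1 lies 5391 bases downstream of the GENCODE start. Those searched for Psat1 lie 22278 and 22715 bases downstream of it. None of these motifs overlapped another in the members' windows. For the most abundant carriers, the upstream stretches outside the gene's own span in GENCODE M21 are printed where they hold a match. They run 5′ to 3′ on the gene's strand, with the matches in capitals, and were not checked for exons of other genes. The stretches are Calr at chr8:84846935-84847181 (minus), Canx at chr11:50325674-50325923 (minus), Hsp90b1 at chr10:86705510-86705694 (minus), Herpud1 at chr8:94386179-94386428 (plus) and Chac1 at chr2:119350992-119351228 (plus).
Calr: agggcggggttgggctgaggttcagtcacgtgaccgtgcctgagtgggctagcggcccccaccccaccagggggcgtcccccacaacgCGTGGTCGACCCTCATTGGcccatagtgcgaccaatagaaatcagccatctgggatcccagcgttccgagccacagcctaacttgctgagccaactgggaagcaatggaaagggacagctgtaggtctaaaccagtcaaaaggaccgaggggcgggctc
Canx: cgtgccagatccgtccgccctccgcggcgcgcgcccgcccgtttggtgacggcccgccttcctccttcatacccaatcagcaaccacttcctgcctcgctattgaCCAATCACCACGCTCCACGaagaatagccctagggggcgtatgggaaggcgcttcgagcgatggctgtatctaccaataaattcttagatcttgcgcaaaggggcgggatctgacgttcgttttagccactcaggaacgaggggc
Hsp90b1: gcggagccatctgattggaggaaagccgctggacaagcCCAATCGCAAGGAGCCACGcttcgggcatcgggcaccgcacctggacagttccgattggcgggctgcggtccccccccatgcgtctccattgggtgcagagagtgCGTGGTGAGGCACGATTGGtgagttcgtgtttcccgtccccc
Herpud1: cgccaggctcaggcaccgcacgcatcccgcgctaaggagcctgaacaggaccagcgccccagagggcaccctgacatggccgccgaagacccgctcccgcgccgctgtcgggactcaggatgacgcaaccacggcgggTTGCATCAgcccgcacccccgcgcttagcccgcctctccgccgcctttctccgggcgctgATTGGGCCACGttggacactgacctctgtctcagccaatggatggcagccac
Chac1: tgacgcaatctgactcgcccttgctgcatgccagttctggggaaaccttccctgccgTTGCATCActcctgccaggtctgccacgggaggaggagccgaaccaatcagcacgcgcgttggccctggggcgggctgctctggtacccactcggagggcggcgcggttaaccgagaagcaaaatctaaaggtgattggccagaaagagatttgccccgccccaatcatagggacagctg
In Calr, Herpud1 and Chac1, and in the second element of Hsp90b1, capitals include matches that read in the reverse direction. Herpud1 carries both kinds of element, the ATF4 type further from the start and ERSE-II nearer to it. A match describes these letters only, and a window without one says nothing of the factor.

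The ER chaperones were the members that stood out between groups. The lists were chosen with earlier results of these data known, so their shares beside those of all genes are description and not a test. In fish oil injured mice 14 of 14 chaperones were above fish oil sham in the fitted log2 fold change, with a median of 0.20 and a range of 0.08 to 0.58. Over all genes tested 49% were above 0 and the median was -0.01. For 9 of the 14 the 3 injured libraries all lay above the 3 sham libraries, as they did for 4.97% of all genes. An unadjusted p under 0.05 was reached by 5 of the 14 in the upward direction, against 1.58% of all genes, and adjusted p was 0.999 for each of them.

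Hspa5, the central ER chaperone, stood at 231.6, 198.5 and 236.6 CPM in fish oil sham and at 312, 339 and 295 CPM in fish oil injured libraries 2, 3 and 4. The groups did not overlap. The log2 fold change was 0.51 ± 0.15 (SE, n = 3 against 3), with the 70th smallest p of the genes tested and an adjusted p of 0.999 by edgeR. In purified sham Hspa5 stood at 206.4, 219.8 and 206.3 CPM, and in purified injured at 187, 245 and 297 CPM, so that the purified injured libraries ran from the lowest of all 12 to the level of the lowest fish oil injured library.

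Manf, a secreted ER stress-inducible factor that protects neurons, was the member with the smallest p. Its levels were 20.3, 17.6 and 21.9 CPM in fish oil sham and 25.5, 25.9 and 26.6 CPM in fish oil injured. The 6 purified-diet libraries lay between 19.98 and 22.05 CPM (21.01, 19.98 and 20.02 in sham, 20.8, 20.71 and 22.05 in injured libraries), so that all 3 fish oil injured libraries were above the other 9. The log2 fold change of injury on the fish oil diet was 0.38 ± 0.10 (SE), with an adjusted p of 0.999 by edgeR and the 47th smallest p of the 19252 genes.

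Dnajc3 (P58IPK, a co-chaperone of BiP that also restrains PERK) had the same separation. It stood at 93.3, 90.2 and 91.4 CPM in fish oil injured libraries and at 75.7, 71.6 and 71.7 CPM in fish oil sham. Purified sham libraries held 69.7, 69.3 and 75.3 CPM and purified injured ones 64.7, 79.8 and 82.6 CPM. The 3 fish oil injured libraries were above the other 9, and the log2 fold change of injury on this diet was 0.33 ± 0.10 (SE; edgeR adjusted p = 0.999). Hsp90b1 and Dnajb11, another BiP co-chaperone, completed the set of 4 members with all 3 fish oil injured libraries on top, a pattern found for 0.79% of all genes. Hsp90b1 ran from 432 to 464 CPM there and from 308 to 421 CPM in the other 9 libraries. Dnajb11 ran from 42.9 to 44.0 CPM against 32.5 to 42.5 CPM.

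Pdia4, a disulfide isomerase of the BiP complex, stood at 35.5, 34.8 and 38.8 CPM in fish oil sham and at 43.9, 52.6 and 46.1 CPM in fish oil injured. The groups did not overlap, and the log2 fold change was 0.39 ± 0.13 (SE; edgeR adjusted p = 0.999). On the purified diet the same gene stood at 35.3, 33.2 and 35.7 CPM in sham and 32.03, 43.6 and 43.9 CPM in injured libraries, where the groups overlapped through injured library 2. Sdf2l1, a stabiliser of the BiP cycle and the least abundant chaperone of the list in CPM, had the largest fold. It was at 3.10, 2.85 and 3.25 CPM in fish oil sham and at 3.91, 4.09 and 5.74 CPM in fish oil injured (log2 fold change 0.58 ± 0.26, SE; edgeR adjusted p = 0.999). Its purified sham libraries held 2.45, 2.77 and 3.39 CPM and its purified injured ones 2.25, 3.83 and 3.98 CPM. The smallest folds of injury on the fish oil diet among the 14 were those of Hyou1 (0.08), an ER relative of HSP70, and Canx (0.10). Pdia6, another disulfide isomerase, had injured libraries from 100.0 to 131 CPM above sham ones from 91.8 to 97.7 CPM (0.25 ± 0.15, SE). Creld2, a secreted isomerase-like factor, and Dnajb9 (ERdj4), which holds IRE1 inactive, had overlapping groups at 0.21 ± 0.18 and 0.13 ± 0.12.

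**Figure D2:**
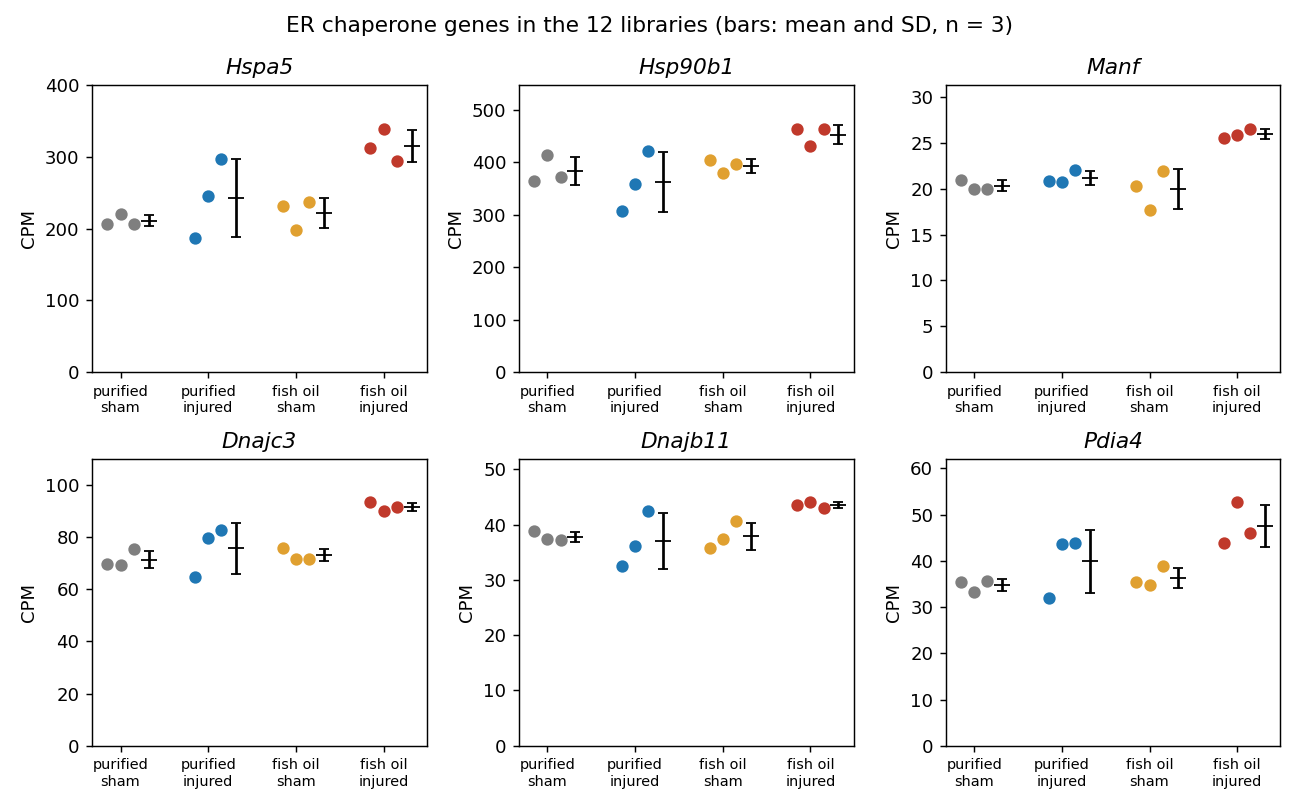
CPM of 6 ER chaperone genes in each of the 12 libraries (points, in the order 2, 3, 4 within each group), with the mean and SD of each group of 3 beside them. For Hsp90b1, Manf, Dnajc3 and Dnajb11 the 3 fish oil injured points lie above the other 9, and purified injured points are the most spread for Hspa5, Hsp90b1, Dnajc3, Dnajb11 and Pdia4.

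The highest of the 12 libraries was a fish oil injured one for 14 of 14 chaperones, against 29.3% of all genes. Taken alone, fish oil injured libraries 2, 3 and 4 were above all 3 fish oil sham libraries for 12, 12 and 11 of the 14 chaperones, against 24.9%, 26.9% and 26.9% of all genes. The choroid plexus genes moved with this group: 15 of 15 were above 0 in the same comparison, with a median log2 fold change of 3.68. Ttr (transthyretin), one of the most abundant of them, stood at 186, 2417 and 2256 CPM in fish oil injured libraries and at 9.82 to 50.1 CPM in the other libraries apart from purified sham library 3, at 434 CPM. Library 2, with the lowest choroid plexus sum of the fish oil injured group, had a median chaperone deviation from the 12-library mean of 0.17, beside 0.24 and 0.20 for libraries 3 and 4. Purified sham library 3, whose choroid plexus sum was above that of fish oil injured library 2, had -0.09. With the choroid plexus score as a covariate the chaperone median was 0.13 in place of 0.20. Under it Manf stood at 0.37 ± 0.19 (SE) and Hspa5 at 0.32 ± 0.26, while Calr (-0.11) and Pdia6 (-0.06) were below 0. The number of members with an unadjusted p under 0.05 was 1, in place of 6 in the main fit, where 3.48% of all genes had such a p. The share of all genes was not computed with the covariate. The score was 2.65, 5.35 and 5.37 in fish oil injured libraries 2, 3 and 4 and 0.11 to 3.01 in the others. Score and group are thus hard to separate, and standard errors were wider with the covariate. In the main fit they were 0.10 for Manf and 0.15 for Hspa5. Of 18 immediate early genes 16 were above 0 in the same comparison (median 0.35), and their part in the chaperone values was not tested. In bulk tissue a change in the share of a cell type and a change in RNA per cell cannot be told apart.

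**Figure D3:**
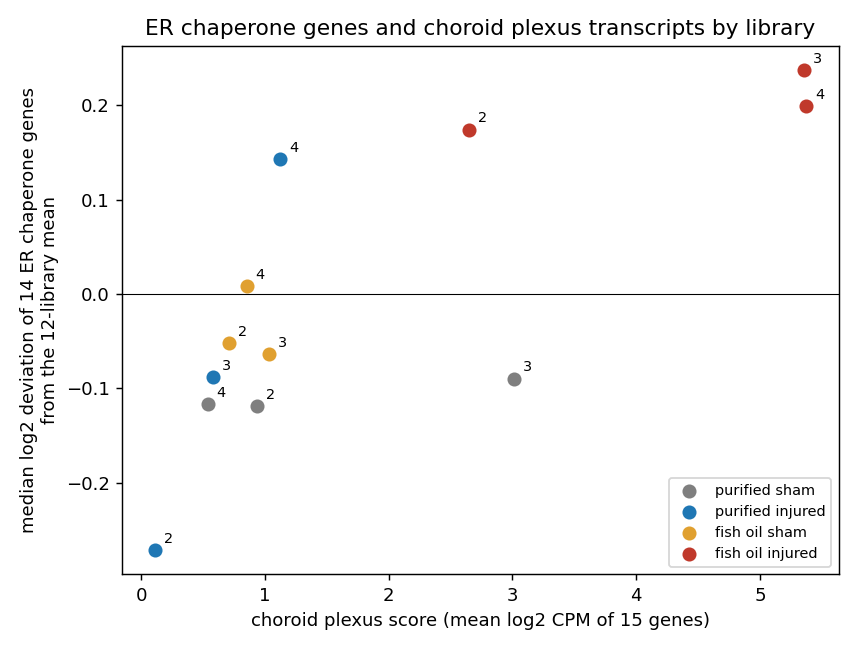
Median log2 deviation of the 14 ER chaperone genes from their 12-library means (vertical axis) against the choroid plexus score (mean log2 CPM of 15 genes, horizontal axis) in each library, coloured by group and numbered as in the labels. Fish oil injured libraries 3 and 4 lie at 0.24 and 0.20 with scores of 5.35 and 5.37. Fish oil injured library 2 lies at 0.17 with a score of 2.65 and purified sham library 3 at -0.09 with a score of 3.01, while purified injured library 4 reaches 0.14 at a score of 1.12.

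In the chaperones fish oil injured mice were also above purified injured mice, a comparison that shares the fish oil injured libraries with the one before. There 14 of 14 chaperones were above 0, with a median log2 fold change of 0.29, against 50.8% of all genes. The choroid plexus genes were above 0 in 15 of 15 cases (median 3.83) and with their score as a covariate the chaperone median was 0.15. Mature oligodendrocyte genes were above 0 in 11 of 11 cases (median 0.69), with sums of 2104 to 3089 CPM in purified injured and 2039 to 5786 CPM in fish oil injured libraries, and their part in the result was not tested. An unadjusted p under 0.05 in the upward direction was reached by 7 of the 14 and by 3.89% of all genes, and the groups did not overlap for 5 of the 14, against 5.6% of all genes. Calr had the smallest p of the members. It stood at 244, 268 and 309 CPM in purified injured and at 319, 361 and 344 CPM in fish oil injured libraries, without overlap (log2 fold change 0.32 ± 0.11, SE; edgeR adjusted p = 0.403). Its sham libraries held 282, 299 and 273 CPM on the purified diet and 309.9, 292 and 337 CPM on the fish oil diet.

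Hsp90b1 held 308, 359 and 421 CPM in purified injured and 464, 432 and 464 CPM in fish oil injured libraries, again without overlap (0.32 ± 0.12, SE; edgeR adjusted p = 0.408). Its sham libraries held 365, 415 and 372 CPM on the purified diet and 406, 379.6 and 397 CPM on the fish oil diet. Manf and Dnajc3, whose libraries are given above, were at 0.30 ± 0.10 (edgeR adjusted p = 0.407) and 0.28 ± 0.10 (edgeR adjusted p = 0.408). Pdia3 stood at 150.4, 157 and 204 CPM in purified injured libraries and at 203, 213 and 212 CPM in fish oil injured ones, which overlap through purified injured library 4 (0.30 ± 0.11, SE; edgeR adjusted p = 0.415). Its sham libraries held 174, 179 and 167 CPM on the purified diet and 185, 177 and 191 CPM on the fish oil diet. The purified injured group itself was wide and held the lowest of all 12 libraries for 11 of 14 chaperones (34.7% of all genes), 10 of them in library 2. Library 2 had a median chaperone deviation of -0.27 from the 12-library mean and library 4 one of 0.14. Members with p under 0.05 numbered 8 in this comparison (10.7% of all genes), 2 without purified injured library 2, 12 without library 4, and 5 without fish oil injured library 4. They numbered 1 with the choroid plexus covariate, 1 when only these 2 groups were fitted, and 3 without the 2 libraries rich in striatal or olfactory bulb genes. The 10.7% belongs to the main fit, and shares of all genes under these other settings were not computed. Without purified injured library 4, 83 of all genes tested passed an adjusted p of 0.05, so that more genes were called there in general.

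On the purified diet no chaperone had injured and sham libraries that did not overlap, and none had p under 0.05. The chaperone median was 0.07, with 9 of 14 above 0 against 50.6% of all genes. Without purified injured library 4 that median was -0.01, and without library 2 it was 0.11. Between the diets in sham mice 11 of 14 chaperones were above 0, against 51.1% of all genes, with a median of 0.07. Canx and Pdia6 had fish oil sham libraries all above the purified sham ones, a separation in this direction that 6.31% of all genes showed. Canx stood at 445.7, 447 and 453 CPM in purified sham and at 542, 469 and 510.4 CPM in fish oil sham, with a log2 fold change of 0.18 ± 0.11 (SE; edgeR adjusted p = 0.934). In injured mice it held 423, 445 and 549 CPM on the purified diet and 557, 556 and 523 CPM on the fish oil diet.

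The sensors and their transcription factors did not follow the chaperones in every comparison. All 4 were below 0 for injury on the purified diet (median -0.15) and for diet in sham mice (median -0.33), and all 4 were above 0 for injury on the fish oil diet (median 0.16). Xbp1, the factor spliced by IRE1, stood at 87.9, 95.5 and 86.8 CPM in purified sham and at 70.9, 78.6 and 72.4 CPM in fish oil sham, without overlap, as for 7.45% of all genes in this direction. Its log2 fold change between diets in sham mice was -0.28 ± 0.12 (SE; edgeR adjusted p = 0.934). Injured mice held 69.7, 83.4 and 88.0 CPM on the purified diet and 100.5, 79.1 and 85.5 CPM on the fish oil diet. Injury on the fish oil diet thus gave 0.26 ± 0.12 (edgeR adjusted p = 0.999), again without overlap, as for 4.97% of all genes in this direction. The lowest of those injured libraries was 79.1 CPM beside a highest sham library of 78.6 CPM. Gene-level counts do not tell spliced from unspliced Xbp1 mRNA.

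Ern1, the gene of IRE1, was at 17.2, 19.9 and 16.4 CPM in purified sham and at 12.6, 13.9 and 13.6 CPM in fish oil sham. The groups did not overlap, as for 7.45% of all genes in this direction, and the log2 fold change was -0.41 ± 0.18 (SE; edgeR adjusted p = 0.934). Injured mice held 15.7, 22.8 and 13.6 CPM on the purified diet, the highest of them in the library rich in olfactory bulb genes, and 16.2, 13.8 and 12.1 CPM on the fish oil diet. Xbp1 and Ern1 were the 2 members with p under 0.05 and a lower level in the sham comparison, against 1.95% of all genes (3.69% in either direction). That number was 0 without purified sham library 3 and without fish oil sham library 2 or 4. It was 1 without purified sham library 2, with a choroid plexus covariate, with a replicate block and without the 2 libraries rich in other regions' genes. The shares of all genes under these settings were not computed. The sum of 15 endothelial genes was also lower on the fish oil diet in sham mice, at 161 to 197 CPM against 256 to 350.0 CPM, and its part in these values was not tested.

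Atf6 was the most variable of the sensors, with a coefficient of variation of 22.7% within groups. It stood at 126, 156 and 128 CPM in purified sham and at 139, 101 and 84.9 CPM in purified injured libraries. Fish oil sham libraries held 93.8, 137 and 83.8 CPM and fish oil injured ones 121, 98.5 and 164 CPM. Every group overlapped every other. Its log2 fold change between diets in sham mice was -0.38 ± 0.24 (SE; edgeR adjusted p = 0.934). Eif2ak3, the gene of PERK, lay between 29.8 and 37.7 CPM in all 12 libraries, with log2 fold changes between -0.14 and 0.12 in the 4 pairwise comparisons.

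The 6 genes of degradation and translocation did not move as a group. For injury on the fish oil diet 2 of 6 were above 0 with a median of -0.05, and for diet in injured mice 3 of 6 were above 0 with a median of 0.04. Sel1l and Syvn1, the core of the HRD1 ligase complex, ranged from 205 to 262 CPM and from 23.3 to 31.6 CPM over the 12 libraries. Herpud1, which recruits that complex, ran from 41.8 to 60.8 CPM in fish oil injured and from 38.7 to 49.8 CPM in fish oil sham libraries, with overlap (0.20 ± 0.14, SE). Edem1, which hands misfolded glycoproteins to degradation, had purified injured libraries (30.5 to 31.3 CPM) just below purified sham ones (31.4 to 34.5 CPM). That separation was found for 6.68% of all genes, and the log2 fold change was -0.08 ± 0.11 (SE; edgeR adjusted p = 0.916). Derl3, at under 1 CPM in all libraries, was the only member with fish oil injured libraries (0.366 to 0.421 CPM) all below fish oil sham ones (0.507 to 0.894 CPM), with a log2 fold change of -0.78 ± 0.44 (SE; edgeR adjusted p = 0.999). That separation downward was found for 5.23% of all genes. Sec61b, a subunit of the translocon, ranged from 1.98 to 3.69 CPM and both of these extremes were fish oil injured libraries.

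The ATF4 branch did not share the pattern of the chaperones. For injury on the fish oil diet 6 of its 10 genes were above 0, with a median of 0.03, none had p under 0.05 and none had groups that did not overlap. The highest of the 12 libraries was a fish oil injured one for 1 of the 10, Nupr1, a small stress-induced chromatin protein, and a purified sham one for 5 of the 10 (17.7% of all genes). Atf4 itself stood at 120.2, 104 and 102 CPM in purified sham, 85.7, 89.8 and 94.7 CPM in purified injured, 79.8, 114 and 95.7 CPM in fish oil sham and 118, 91.0 and 112 CPM in fish oil injured libraries. The purified injured libraries were all below the purified sham ones, as for 6.68% of all genes, and the log2 fold change was -0.27 ± 0.14 (SE; edgeR adjusted p = 0.773). The fish oil groups overlapped (0.15). ATF4 is controlled mainly at translation, which these counts do not measure.

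On the purified diet 2 of 10 ATF4-branch genes were above 0 in injured mice, with a median of -0.15, against 50.6% of all genes. The exceptions were Nupr1 (0.19) and Sesn2 (sestrin 2, a leucine-sensing regulator of mTORC1). Sesn2 held 9.65, 9.83 and 8.88 CPM in purified sham and 10.9, 11.8 and 12.5 CPM in purified injured libraries, without overlap, as for 4.92% of all genes in this direction. Its log2 fold change was 0.31 ± 0.14 (SE; edgeR adjusted p = 0.763), the single member of 34 with p under 0.05 there, against 6.5% of all genes and 3.93% upward. That number was 0 without purified sham library 2, 3 or 4 or without purified injured library 4, and 4 without purified injured library 2. It was also 0 with a replicate block and with no filter on low counts, and 2 without the 2 libraries rich in other regions' genes. For these settings the shares of all genes were not computed. On the fish oil diet Sesn2 stood at 8.595, 11.65 and 11.01 CPM in sham and at 11.1, 11.4 and 11.3 CPM in injured libraries, which overlapped.

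Asns, which makes asparagine and is a standard readout of ATF4, held 123, 119 and 114 CPM in purified sham and 114, 72.7 and 113 CPM in purified injured libraries (-0.25 ± 0.16, SE; edgeR adjusted p = 0.782). These groups did not overlap (lowest sham library 114.3 CPM, highest injured library 113.5 CPM), as for 6.68% of all genes in this direction. The value of 72.7 CPM, the lowest of all 12, was that of the library rich in olfactory bulb genes. Fish oil sham libraries held 111, 144 and 118 CPM and fish oil injured ones 127, 132 and 138 CPM, so that the injured groups did not overlap between diets, as for 5.6% of all genes in this direction. That comparison gave 0.41 ± 0.16 (SE; edgeR adjusted p = 0.420). Ppp1r15a (GADD34), which directs dephosphorylation of eIF2, stood at 12.5, 11.9 and 9.57 CPM in purified sham, 8.96, 10.5 and 9.56 CPM in purified injured, 9.203, 11.1 and 8.43 CPM in fish oil sham and 8.69, 8.13 and 9.22 CPM in fish oil injured libraries. Its fitted values were below 0 in all 4 pairwise comparisons (-0.14 to -0.24), with overlap of the groups in each of them. Over the same groups the summed level of 18 immediate early genes, induced by neuronal activity and handling, was 1902 to 2509 CPM in purified sham, 1134 to 1794 CPM in purified injured, 874 to 1615 CPM in fish oil sham and 1038 to 2478 CPM in fish oil injured libraries, and its part in the values of Atf4 and Ppp1r15a was not tested.

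Among the remaining ATF4-branch genes, Ddit3 lay between 11.3 and 15.5 CPM in all libraries, with the 4 groups overlapping, and Atf5, a related factor, between 5.42 and 11.56 CPM. Psat1, an enzyme of serine synthesis, ranged from 85.4 to 140.2 CPM, and both extremes were purified sham libraries. Chac1, which degrades glutathione, ranged from 2.97 to 5.85 CPM, with both extremes in fish oil sham. Trib3 had no read counted in fish oil injured library 2, where 3 counts would be 0.0545 CPM, and at most 0.639 CPM in any library. Its fitted fold of injury on the fish oil diet (-1.36 ± 0.84, SE) rests on these few counts.

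**Figure D4:**
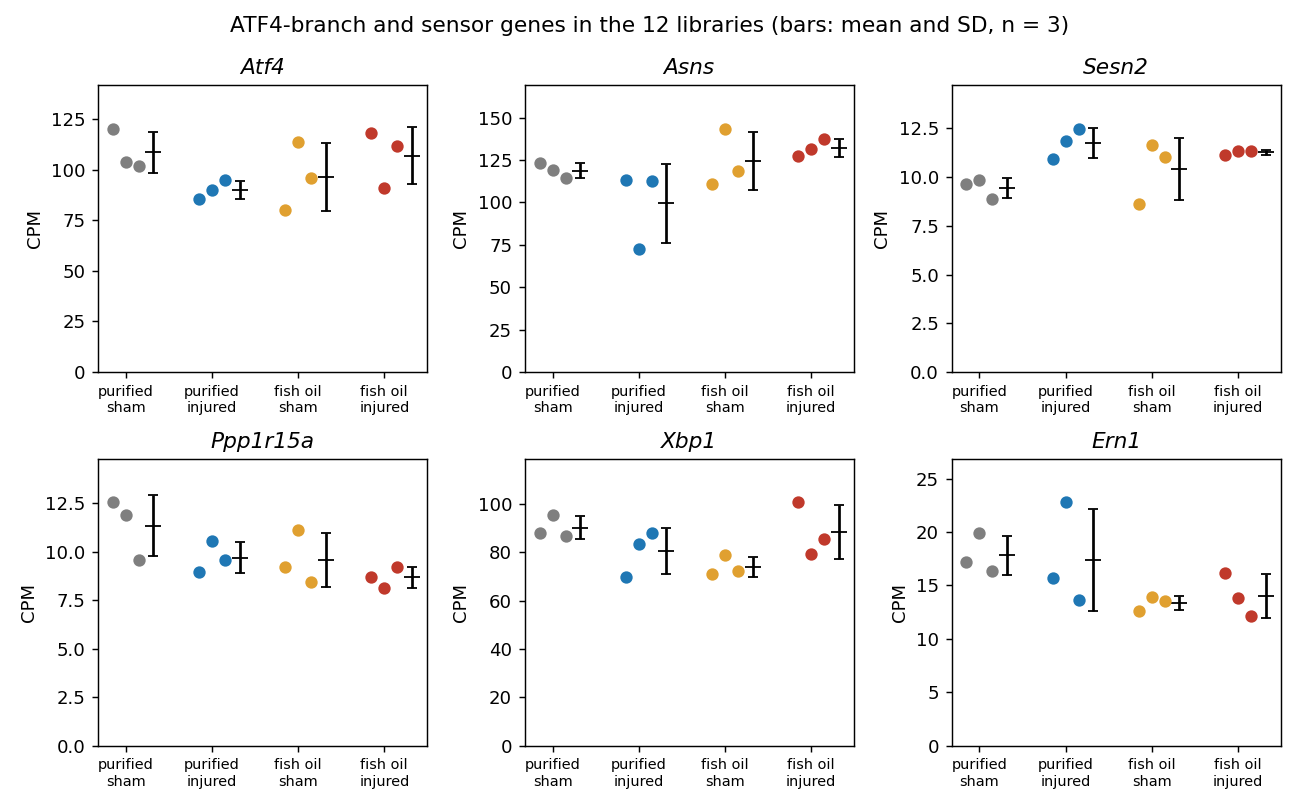
CPM of 4 ATF4-branch genes and of Xbp1 and Ern1 in each of the 12 libraries (points), with the mean and SD of each group of 3. Purified sham libraries are the highest group by mean for Atf4, Ppp1r15a, Xbp1 and Ern1, and Asns has one low purified injured point at 72.7 CPM.

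Over all 34 members, 26 were above 0 for injury on the fish oil diet, 25 for diet in injured mice, 20 for diet in sham mice and 13 for injury on the purified diet. The direct test of whether injury acted differently on the 2 diets is the diet by injury interaction. There 27 of 34 were above 0, against 47.6% of all genes, with a median of 0.17, and 13 of 14 chaperones were above 0 with a median of 0.21. An unadjusted p under 0.05 in the upward direction was reached by 2 members, against 2.85% of all genes. In either direction 5.76% of all genes had such a p. The members were Xbp1 (0.42 ± 0.16, SE; edgeR adjusted p = 0.820) and Manf (0.32 ± 0.14, SE; edgeR adjusted p = 0.820). For Hspa5 the interaction was 0.30 ± 0.21 (SE; edgeR adjusted p = 0.826). Left-out libraries moved the number of such members from 0 (purified sham library 3, fish oil sham library 2 or fish oil injured library 2) to 5 (purified injured library 4). It was 1 without purified sham library 2 or 4, purified injured library 2 or 3, or fish oil injured library 4, and 0 without the 2 libraries rich in other regions' genes. Shares of all genes were not computed for these fits. With the choroid plexus score as a covariate the chaperone median of the interaction was 0.04.

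Averaged over diets, injury gave 20 of 34 members above 0, against 50.3% of all genes. Of them 6 had p under 0.05, all upward, against 3.6% of all genes and 1.89% upward: Hspa5, Pdia4, Manf, Dnajc3, Sdf2l1 and Sesn2. With the choroid plexus covariate 3 members had such a p. Without it Hspa5 was at 0.35 ± 0.10 (SE; edgeR adjusted p = 0.991). Averaged over injury states, the fish oil diet gave 25 of 34 above 0, against 52.5% of all genes. Calr, Canx, Pdia3, Pdia6, Dnajc3 and Hsp90b1 were higher with p under 0.05 (2.75% of all genes), and Ern1 was lower (6.1% of all genes) at -0.36 ± 0.13 (SE; edgeR adjusted p = 0.491). Together 8.85% of all genes had p under 0.05 there. The 7 members were 2 without purified sham library 2 or fish oil sham library 4, 3 without purified injured library 2 or fish oil injured library 3, and 4 without purified sham library 3, purified injured library 3 or fish oil sham library 2, and 10 were counted without purified injured library 4. With the choroid plexus covariate the number was 1, without the 2 libraries rich in other regions' genes 2, and with a replicate block 4. Shares of all genes were not computed for any of these settings, nor for the covariate fit of the injury average. Calr was at 0.23 ± 0.08 (SE; edgeR adjusted p = 0.469).

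**Figure D5:**
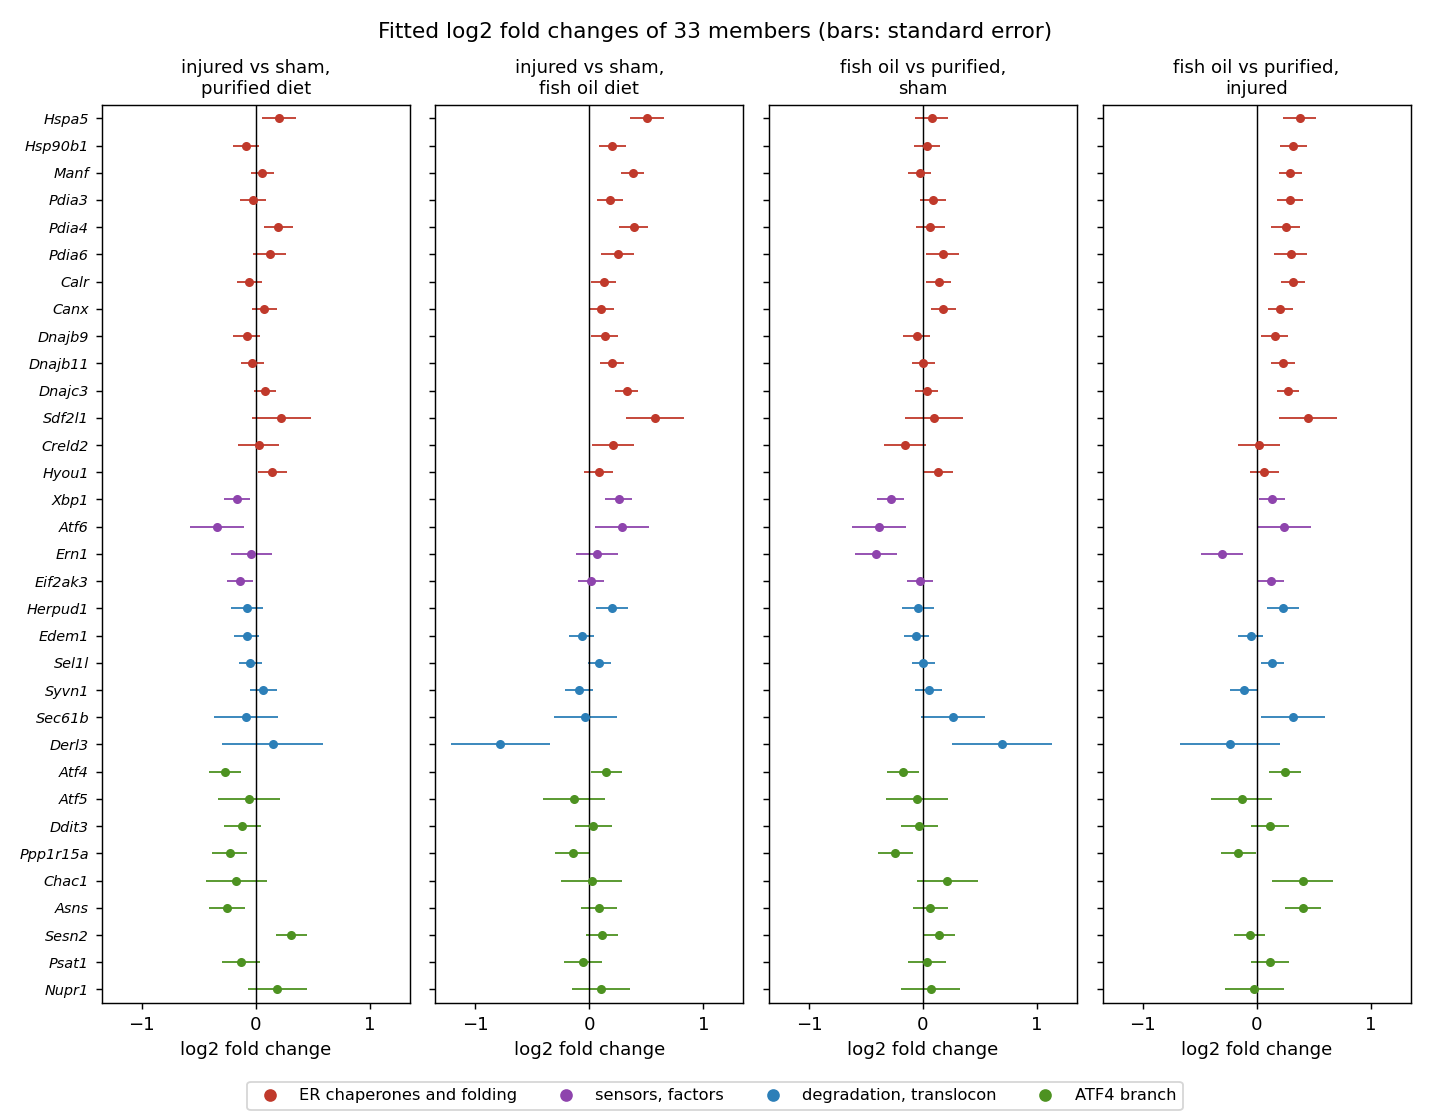
Fitted log2 fold changes (points) with standard errors (bars) of 33 members in the 4 pairwise comparisons, coloured by role; Trib3 is left out because of its few counts. In the second and the last panel all 14 chaperones lie right of 0, while ATF4-branch genes lie on both sides.

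The genes with an ERSE match can be set beside those values. For injury on the fish oil diet 7 of the 9 were above 0, against 49% of all genes, with a median of 0.20. Those 7 are chaperones already counted above, and the 2 below 0 were Syvn1 and Derl3, the degradation genes. Outside the list 26 genes carried a match, of which 11 were tested, and 8 of these were above 0 with a median of 0.06 and none with groups that did not overlap upward. Of the chaperones searched, those with a match had folds from 0.10 (Canx) to 0.51 (Hspa5). Those without one ran from 0.13 (Dnajb9) to 0.58 (Sdf2l1).

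Other genes of the pathways, from lists chosen beside the members, had 0 genes with an adjusted p under 0.05 among 124 tested. Translocon, signal peptide and glycosylation genes were above 0 in 19 of 21 cases in injured against sham mice on fish oil, with a median of 0.07 and none with p under 0.05. The smallest p values were those of Sec63 (0.18 ± 0.09, SE), the partner that docks BiP at the translocon, and Stt3b (0.20 ± 0.10), a subunit of the oligosaccharyltransferase. For diet in injured mice 20 of 21 were above 0, with a median of 0.15 and 3 with p under 0.05, against 10.7% of all genes. The 18 further ER folding enzymes divided 11 above to 7 below in both of these comparisons, with medians of 0.08 and 0.13. The subunits of eIF2 and eIF2B with the eIF2 kinases and phosphatase partners were above 0 in 9 of 12 cases for injury on the fish oil diet (median 0.11) and in 2 of 12 on the purified diet (median -0.04). Eif2s1, the eIF2 subunit that the kinases phosphorylate, was at 0.24 ± 0.11 (SE; edgeR adjusted p = 0.999) for injury on the fish oil diet and 0.35 ± 0.11 (edgeR adjusted p = 0.390) for diet in injured mice.

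Aminoacyl-tRNA synthetases that ATF4 is known to induce were above 0 in 3 of 12 cases for injury on the purified diet (median -0.16) and in 11 of 12 for diet in injured mice (median 0.15), 2 comparisons that share the purified injured libraries. Nars was at -0.25 ± 0.11 (SE; edgeR adjusted p = 0.763) in the first and 0.29 ± 0.11 (edgeR adjusted p = 0.420) in the second. Amino acid and one-carbon genes linked to ATF4 were divided, with 10 of 18 above 0 for injury on either diet. Chaperones outside the ER were also higher in fish oil injured libraries. Of 13 cytosolic heat shock genes 12 were above 0 for injury on the fish oil diet (median 0.17, 2 with p under 0.05 against 3.48% of all genes) and 12 for diet in injured mice (median 0.28, 7 with p under 0.05 against 10.7% of all genes). Their summed level was 6147 to 6462 CPM in fish oil injured libraries and 4928 to 5988 CPM in the other 9.

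Likeness to Hspa5 was measured within groups. Over the 12 libraries, as deviations from the group means, Pearson's r with Hspa5 was 0.88 for Calr (rho 0.84), 0.87 for Canx (rho 0.76) and 0.84 for Pdia3 (rho 0.77). The median r was 0.76 over the 13 other chaperones and -0.14 over the 10 ATF4-branch genes. Of 33 relations none passed an adjusted p of 0.05 in exact permutations within groups (1296 arrangements). For Calr p was 0.0216 for r and 0.0177 for rho, adjusted to 0.356 and 0.246. Leaving out purified injured libraries 2 and 4, the farthest from the median of Hspa5, r became 0.72 for Calr, 0.65 for Canx and 0.42 for Pdia3. It became 0.24 for Hsp90b1 (from 0.82), 0.23 for Dnajb11 (from 0.82), 0.05 for Dnajc3 (from 0.76), -0.10 for Sdf2l1 (from 0.57) and -0.48 for Dnajb9 (from 0.52), so that these 5 relations rest on those libraries. Creld2 was at -0.50 with all libraries and -0.15 without them. Atf6 went the other way, with r of -0.80 (exact permutation p = 0.00849, adjusted 0.280) and rho of -0.85 (exact permutation p = 0.0116, adjusted 0.246), and r was -0.80 without those libraries.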

How the data were processed

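Gene counts of 12 libraries (TruSeq Stranded, paired reads) were deposited by the authors as raw counts. The submitters' processing notes name mm10, STAR (2.5.2a) and featureCounts (1.4.3-p1). The sources used here do not give the annotation release, strand setting or treatment of multimapping reads. Values of 2 (20514) outnumbered values of 1 (11222), so both mates may have been counted. Counts were filtered with filterByExpr (minimum count 10), scaled by TMM and tested with edgeR 4.0.16 (R 4.3.3) quasi-likelihood F-tests on 4 group means over all 12 libraries, with Benjamini-Hochberg adjustment over 19252 genes and a threshold of 0.05; standard errors come from the F statistic. The common biological coefficient of variation was 0.289. CPM are TMM-scaled, and RPKM divide them by GENCODE M21 exon length. Alternatives included limma 3.58.1, DESeq2 1.42.0, left-out libraries and covariates. Members' exons overlapped those of other genes by at most 15.7% (Hsp90b1). Fits were checked on data simulated with changes of 2-fold and 4-fold, larger than the fitted folds of the chaperones. Members and lists were chosen with earlier results of these data known. By rule, values of every library are given for Hspa5, Atf4 and, per pairwise comparison, the up to 6 members with the smallest p at a mean of 1 CPM or more; other pathway lists name up to 2 genes per comparison, and promoter stretches up to 4 members per motif.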

Additional observations from a re-analysis of the deposited data

How the results depend on the processing

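No member passed an adjusted p of 0.05 under any alternative. Of the 0 genes called over all tested, DESeq2 called 14 for injury on the purified diet, 37 for injury on the fish oil diet, 17 for diet in sham mice, 186 for diet in injured mice, 3 and 99 for the averages of injury and diet and 21 for the interaction. limma-voom called 1 for injury on the fish oil diet and 2 for the injury average, the same numbers with correlated libraries, which also gave 2 for the diet average. Without a filter on low counts the averages gave 1 and 2. Leaving out single libraries gave 0 to 7 for injury on the fish oil diet (7 without fish oil injured library 2), 0 to 83 for diet in injured mice (83 without purified injured library 4, 14 without fish oil injured library 2, 1 without purified injured library 3) and 0 to 6 for the diet average (6 without purified injured library 4). The chaperone median for injury on the fish oil diet kept its sign in 18 of 18 alternatives (0.13 to 0.25). With the choroid plexus covariate the medians for diet in injured mice were 0.103 over 34 members, 0.153 over chaperones and -0.125 over ATF4-branch genes, and those of the interaction 0.0206 over members and 0.042 over chaperones. Without the 2 libraries rich in other regions' genes the ATF4-branch median for diet in injured mice was 0.201 and 1 gene was called. Leaving out single libraries, the 34-member median ran from -0.0558 to 0.0214 for injury on the purified diet and from 0.0994 to 0.193 for the interaction, and the ATF4-branch median for diet in injured mice from -0.0224 to 0.201. The cause was not tested. The labels give no pairing by replicate number, and none was shown (correlations of same-numbered deviations -0.371 to 0.278, and at most 2 of 3 libraries correlated best with their own number). With 3 libraries per group these values cannot exclude a pairing. With a replicate block the chaperone median for injury on the purified diet was 0.0643, 0 genes were called, and members with p under 0.05 numbered 0 for injury on the purified diet and 5 on the fish oil diet. The share of all genes with such a p was not computed for that block. Depth limits chiefly Derl3 and Trib3.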

Other observations

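The subunits of the protein-conducting channel, which assemble in equal numbers, differed in level per length. Sec61b stood at 2.16 RPKM (1.56 to 2.90 over 12 libraries), while Sec61g stood at 7.46 RPKM (5.71 to 9.17) and Sec61a1 at 9.59 RPKM (8.59 to 10.6). Sec61a2, the paralogue of Sec61a1, was higher still at 17.3 RPKM (12.1 to 20.5). Levels per length use the union of annotated exons, 1.27 kb for Sec61b, and the sources used here do not say how reads shared with copies of these genes were counted.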
